A study of Homo sapiens with 12 samples.

Results

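The ac4C peaks of human chromosome 4 were taken as all rows of the deposited peak lists that name this chromosome. They numbered 902 of 28047 peaks in the sh-NAT10 (knockdown) list and 1305 of 34365 peaks in the sh-NC (control) list. Chromosome 4 was selected on its ratio of knockdown to control peak number, which was low, so that ratio is given here as a description and was not tested. The cells were RBE, a human intrahepatic cholangiocarcinoma line, made stable with lentivirus and puromycin and carrying either a hairpin against NAT10 (sh-NAT10) or a control hairpin (sh-NC). Fragmented total RNA was precipitated with an antibody against ac4C, and both the precipitate and an input were sequenced in 3 libraries per arm, 12 libraries in 4 groups. The authors deposited 1 peak list per arm, which does not separate the 3 replicates, so no difference between the arms carries a test and read depth is unknown. The bracketed 95% ranges below cover counting error only and treat peaks as independent, which they are not.

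N4-acetylcytidine, ac4C, is an acetylated cytidine found in ribosomal, transfer and, as reported, messenger RNA, and NAT10 is the acetyltransferase that writes it. In an acRIP-seq experiment a peak is a stretch where the antibody recovered more RNA than a background, so a peak depends on how much of the transcript the cell makes as well as on its acetylation. The lists hold no read counts, and neither the NAT10 transcript level nor the RNA level of any chromosome 4 gene was analysed here.

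Chromosome 4 sequence could be read at only a few peaks, those that touch a RefSeq start-site window or a microRNA hairpin (GRCh38.p14). The first set is shown because it holds a peak with the same interval in both arms and 1 narrow peak from each arm's own list, with cytidines, the base that ac4C modifies, in capitals. Of 1677 start-site windows, which run from 250 bases before to 50 bases after a start, 2 narrow peaks of each list touched one. The peak at RBM47-AS1 was the same 50 bp interval in both lists, with a score of 20.5 in the knockdown list and 16.5 in the control list. All 50 bp lie in the window, and the first 30 are shown, chr4:40426119-40426148 on the plus strand.
RBM47-AS1: tgtataCtggagttattgggCggCCCtgag
The TMEM192 peak, 75 bp with a score of 10.2, was in the knockdown list and had no control counterpart. It reaches the window over chr4:165112811-165112826 on the minus strand.
TMEM192: ggtCCaggtggagagg
The TRIM2 peak, 125 bp with a score of 6.41, was in the control list, where a knockdown peak over this and another gene overlapped it, and is shown over chr4:153257390-153257419 on the plus strand.
TRIM2: aCgCtCagtgagaaaaagatgtCCtgtaag
The stretches at RBM47-AS1 and TRIM2 hold 5 cytidines in 30 bases each, and that at TMEM192 holds 2 in 16 bases. A control-list peak of 50 bp, score 11.8, covered 14 bases of the MIR943 hairpin (chr4:1986384-1986477, minus strand), and no knockdown peak overlapped that peak. The covered bases are in capitals.
MIR943: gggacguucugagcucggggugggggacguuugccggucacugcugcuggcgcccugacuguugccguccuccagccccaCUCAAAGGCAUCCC

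There were 69.1 knockdown peaks per 100 control peaks on chromosome 4 (63.5 to 75.2), against 82.1 on the other chromosomes and 81.6 in the whole series. Among the 22 autosomes this was the lowest ratio. The other 21 ran between 73.1, on chromosome 3, and 96.7, on chromosome 20, with a median of 81.7. Both sex chromosomes were lower than chromosome 4. X had 865 knockdown and 1314 control peaks (65.8 per 100), and Y had 33 and 71 (46.5 per 100). At the ratio of the whole series the 1305 control peaks would stand beside 1065 knockdown peaks, 163 more than were listed.

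Peaks were counted in 39 windows of 5 Mb along the chromosome, by peak midpoint. Windows held a median of 21 knockdown and 30 control peaks. Of the 38 windows with at least 10 control peaks, 26 lay below the ratio of the whole series and 12 at or above it, and 4 held more knockdown than control peaks. The low ratio was therefore spread over many windows and was not uniform.

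The gene-dense first window, 0 to 5 Mb, held 110 knockdown and 128 control peaks, a ratio of 85.9. From 5 to 95 Mb the lists held 424 knockdown and 566 control peaks (74.9 per 100), and from 95 to 190 Mb 368 and 610 (60.3 per 100).

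Measured against the whole-series ratio, the window with the largest shortfall was 110 to 115 Mb, with 15 knockdown and 42 control peaks. It contains ANK2, which accounted for 25 of those control peaks. The next was 180 to 185 Mb, with 10 knockdown and 34 control peaks, where TENM3 had 0 and 11 and STOX2 had 1 and 8. The window at 5 to 10 Mb held 27 knockdown and 54 control peaks, and its leading gene KIAA0232 had 0 and 7.

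The window at 155 to 160 Mb held 15 knockdown and 37 control peaks around GRIA2 and RAPGEF2, and the one at 70 to 75 Mb held 23 and 45 around ANKRD17 and SLC4A4. The lowest ratio among windows with at least 10 control peaks, 28.6, was at 130 to 135 Mb, where 6 knockdown stood beside 21 control peaks. PCDH10 is 1 of 2 coding genes there and had 0 knockdown and 10 control peaks.

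A few windows ran the other way. At 35 to 40 Mb there were 41 knockdown and 29 control peaks, with KLHL5 at 4 and 1, TBC1D1 at 4 and 1 and FAM114A1 at 3 and 0. At 55 to 60 Mb there were 36 knockdown and 25 control peaks, where POLR2B, a core subunit of RNA polymerase II, had 5 and 1 and PAICS, an enzyme of purine synthesis, had 4 and 1. Together the 8 windows of largest shortfall lacked 122 peaks against the whole-series ratio, and the windows above it held an excess of 71.1.

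**Figure D1:**
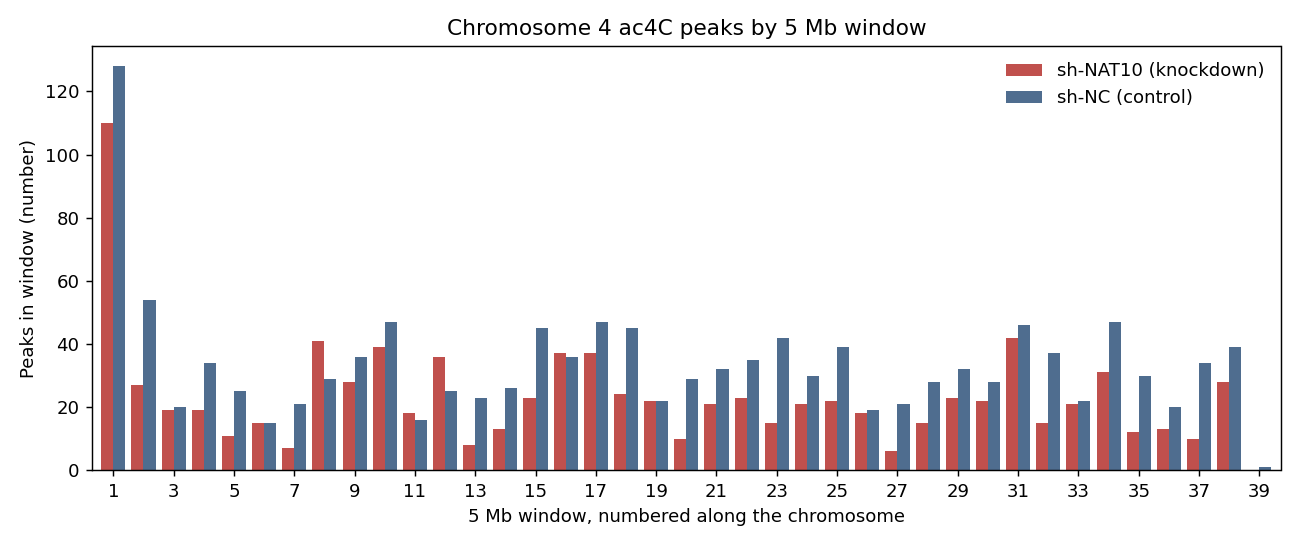
Number of peaks in each of the 39 windows of 5 Mb, numbered along chromosome 4 (x axis), for the sh-NAT10 list (red, left bar) and the sh-NC list (blue, right bar). Window 1 stands out with 110 knockdown and 128 control peaks, and windows 8 and 12 hold more knockdown than control peaks (41 and 29, 36 and 25).

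Each peak was written as 1 block, so its width can include introns. The median width on chromosome 4 was 175 bp in the knockdown list and 300 bp in the control list, against 165 and 175 bp on the other chromosomes. Peaks of up to 100 bp numbered 365 in the knockdown list and 418 in the control list, or 87.3 per 100, near the 88.2 of the other chromosomes. Those over 100 and up to 1000 bp numbered 186 and 338 (55.0 per 100, 72.9 elsewhere).

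Peaks over 10000 bp numbered 175 and 350, 50 per 100 (58.0 elsewhere). They made up 19.4% of knockdown and 26.8% of control peaks on chromosome 4, and 9.64% and 13.6% on the other chromosomes. Over 1000 and up to 10000 bp the numbers were 176 and 199 (88.4 per 100), below the 104 of the other chromosomes. Peaks over 10000 bp had the lowest ratio on chromosome 4 and were low on the other chromosomes too. In each of the 3 width classes over 100 bp the ratio was below that of the other chromosomes.

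The deposited score has no stated scale and ranked peaks within each list. Peaks scoring under 20 numbered 741 in the knockdown list and 1115 in the control list (66.5 per 100, 79.7 on the other chromosomes). At 20 or more they numbered 161 and 190 (84.7 per 100, 99.5 elsewhere). At 50 or more there were 42 knockdown and 30 control peaks, 140 per 100 (88.0 to 223), against 112 elsewhere. Low-scoring peaks therefore held most of the difference in number, while the few highest-scoring ones were not fewer in the knockdown list.

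Sharing was counted where peaks overlapped by at least 1 bp on the same strand. In the knockdown list 477 of 902 peaks overlapped a control peak (52.9%, 49.6 to 56.1), and 425 did not. The share not overlapped over the whole series was 44.4%. In the control list 473 of 1305 peaks overlapped a knockdown peak (36.2%, 33.7 to 38.9), and 832 did not, where the whole-series share not overlapped was 54.5%. On the other chromosomes 55.7% of knockdown and 45.8% of control peaks were shared. The shared peaks were nearly equal in number in both lists, 477 and 473. The wider gap on the control side therefore follows from the low peak number ratio and is not a separate result.

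The same start, end and strand recurred for 212 peaks, 23.5% of the knockdown and 16.2% of the control peaks. Over the whole series the shares were 20.0% and 16.3%. Of these identical intervals 102 had the higher score in the knockdown list, 90 the lower and 20 an equal one. At scores from 10 to under 11, 35.8% of knockdown and 18.5% of control peaks were shared, where the whole series gave 35.8% and 29.4%. At 50 or more the shares were 76.2% of 42 knockdown peaks (61.5 to 86.5) and 73.3% of 30 control peaks (55.6 to 85.8). The whole series gave 86.6% and 81.8%, the latter inside the control range and the former just above the knockdown range.

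Peaks lying over the span of exactly 1 RefSeq gene were assigned to it, 656 of the knockdown (72.7%) and 992 of the control peaks (76.0%). Peaks with no gene under them numbered 17 and 36, and those over several genes 229 and 277. On this count 457 genes of chromosome 4 had a peak, 300 in the knockdown list, 390 in the control list and 233 in both. In the knockdown list 157 of the 390 genes with control peaks lacked any (40.3%, 35.5 to 45.2), where the share over all chromosomes was 32.4%. In the control list 67 of the 300 genes with knockdown peaks lacked any (22.3%), where the share over all chromosomes was 21.9%.

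Of the 457 genes, 239 had fewer peaks in the knockdown than in the control list (52.3%), where all chromosomes gave 46.5%. Another 128 had more (28.0%), where all chromosomes gave 33.4%, and 90 had equal numbers. Protein-coding genes carried 544 knockdown and 842 control peaks, 64.6 per 100 (58.0 to 72.0), against 83.1 on the other chromosomes. Long noncoding RNA genes had 31 and 61 peaks and pseudogenes 81 and 88. The pseudogene ratio, 92.0 per 100, was near the 89.1 of the other chromosomes.

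At least 5 fewer knockdown peaks were counted on 28 genes of chromosome 4, where 4.36% of all genes with a peak reached that difference. All 28 were protein-coding. They held 47 knockdown and 280 control peaks, 12 of them had no knockdown peak, and 25 had a span of at least 100 kb. At least 3 more knockdown peaks were counted on 25 genes, where 5.31% of all genes reached that difference. Those 25 held 122 knockdown and 33 control peaks, and their median span was 77.9 kb, against 213 kb for the 28. Of all 457 genes with a peak, 331 were protein-coding and 162 (35.4%) had a span of at least 100 kb. Their median span was 56.0 kb, and 157 had no knockdown peak. The groups have unlike thresholds, and a drop of 5 needs at least 5 control peaks, so their spans are not compared on equal terms.

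ANK2, ankyrin-B, a scaffold that anchors membrane channels and transporters to the spectrin cytoskeleton, had the largest difference, with 0 knockdown and 25 control peaks (chr4:112705622-113383736). All 25 control peaks lay on the plus strand and had scores between 10.3 and 22.1, and none overlapped a knockdown peak. Counting also peaks that cover another gene, ANK2 had 3 knockdown and 27 control peaks.

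ADGRL3, latrophilin-3, an adhesion receptor of synapses, had 0 knockdown and 15 control peaks (chr4:61200326-62078335). With peaks that also cover another gene it had 2 and 18. Its highest control score was 26.4, and its widest control peak spanned 111376 bp. TENM3, a teneurin of the family that binds latrophilins across the synaptic cleft, had 0 and 11 peaks.

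The protocadherins PCDH10 and PCDH7, homophilic adhesion proteins, had 0 and 10 and 0 and 9 peaks. With PCDH18 at 0 and 1, the 3 protocadherin genes of the chromosome had 0 knockdown and 20 control peaks. Counting also peaks that cover another gene, the 3 had 2 and 22. Both such knockdown peaks touched PCDH7, and 1 of them, over PCDH7 and the pseudogene MTCYBP43, was the same 51090 bp interval as a control peak of score 192. Among peaks over 1 gene alone, PCDH7 held the highest control score of the genes with none in the knockdown list, 70.3, over 136073 bp.

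GRIA2, a subunit of AMPA-type glutamate receptors, had 2 knockdown and 12 control peaks (chr4:157220120-157366075). Both knockdown peaks, of 25 and 75 bp with scores of 11.2 and 14.0, lay inside 1 control peak of 1500 bp near the 3′ end of the gene. The 4 genes of GABA-A receptor subunits, GABRG1, GABRA2, GABRA4 and GABRB1, had 3 and 19 peaks together. GABRA2 had 1 and 9 of these, and its knockdown peak was the same 17092 bp interval as a control peak.

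Outside the receptors and adhesion proteins, BLTP1, a bridge-like lipid transfer protein, had 7 knockdown and 19 control peaks (chr4:122152331-122362752). Of these, 2 knockdown peaks overlapped a control peak. Its highest score was 51.6 in the knockdown list and 21.5 in the control list, so fewer peaks did not go with a lower top score. ANKRD17, an ankyrin repeat protein, had 8 and 16 peaks, and its highest score was 43.9 in the knockdown list and 17.8 in the control list. HTT, huntingtin, had 6 and 14 peaks, with highest scores of 28.3 and 14.2. At a score of 20 or more these 3 genes had more knockdown than control peaks, at 2 and 1 for BLTP1, 2 and 0 for ANKRD17 and 1 and 0 for HTT.

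PPARGC1A, the coactivator PGC-1alpha that drives mitochondrial biogenesis, had 0 knockdown and 10 control peaks. All 10 control peaks had midpoints in the last 10% of its span, with scores between 10.6 and 15.7. ATP8A1, a phospholipid flippase, had 0 and 8 peaks. FBXW7, the receptor by which a ubiquitin ligase recognises cyclin E and MYC, had 3 and 11. TRIM2, a ubiquitin ligase of neurons, had 0 and 8, or 2 and 11 with peaks that also cover another gene. Its first control peak is the one printed above. STOX2 had 1 and 8 peaks, and its knockdown peak was identical to a control peak of 55400 bp, with a score of 128 in the knockdown list and 62.4 in the control list.

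FAT1, an atypical cadherin that restrains growth and shapes actin at cell junctions, ran the other way, with 13 knockdown and 6 control peaks (chr4:186587794-186726696). All 6 control peaks overlapped a knockdown peak. The highest-scoring one was the same 3824 bp interval in both lists, with a score of 58.3 in the knockdown list and 17.7 in the control list. The 7 knockdown peaks with no counterpart had widths between 25 and 3244 bp.

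FRYL had 7 knockdown and 2 control peaks. LETM1, a cation exchanger of the inner mitochondrial membrane, had 8 and 4, and its 4 control peaks each overlapped a knockdown peak. SMARCA5, the ISWI chromatin remodelling ATPase, had 6 and 2, and OCIAD1 had 6 and 2. OCIAD1 also carried a knockdown peak of score 111, where its highest control score was 17.7. LRPAP1, a chaperone of lipoprotein receptors, PDLIM5, an actin-associated PDZ and LIM protein, and POLR2B each had 5 and 1, as did the pseudogene KPNA2P1. PTPN13, a tyrosine phosphatase, had 4 and 0.

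**Figure D2:**
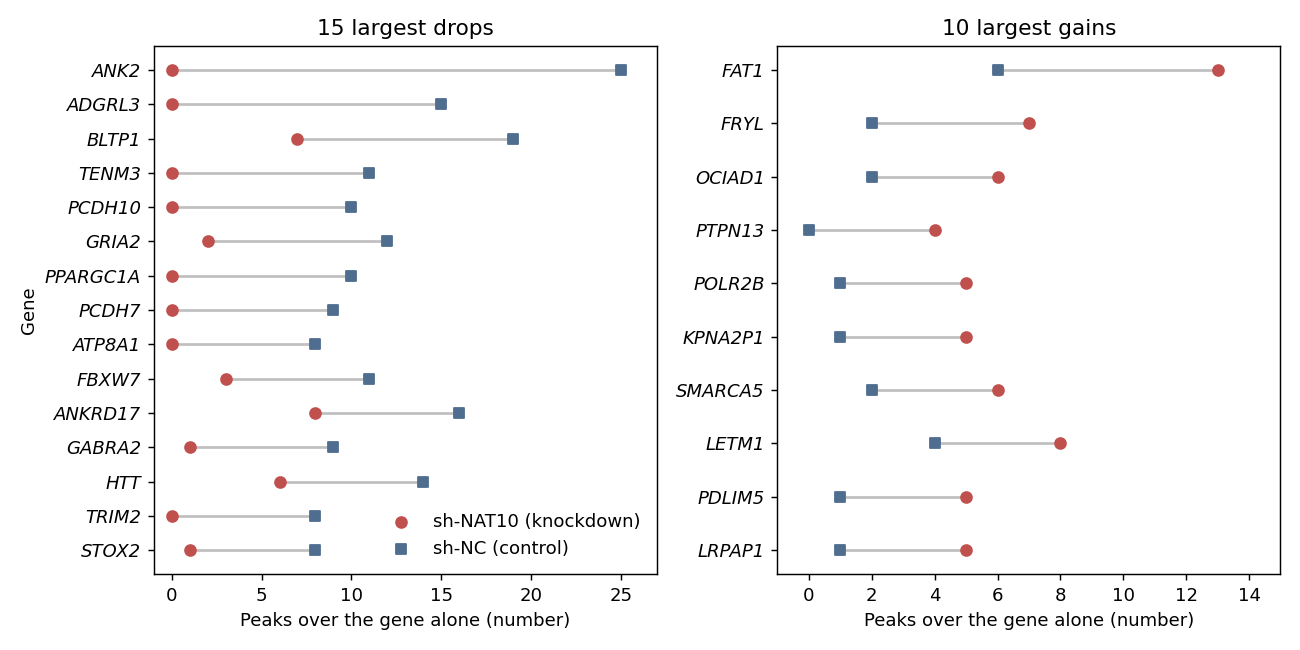
Number of peaks lying over each gene alone (x axis) in the sh-NAT10 list (red circles) and the sh-NC list (blue squares), for the 15 genes with the largest drop in number (left) and the 10 with the largest gain (right). In the left panel 8 of the 15 genes sit at 0 in the knockdown list, and ANK2 has the longest line, 0 against 25.

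Among genes with peaks in 1 arm only, the highest-scoring in the knockdown list were PPA2, a mitochondrial pyrophosphatase, with 1 peak of score 68.3, and GUF1, a mitochondrial translation GTPase, with 1 of 52.7. NUP54, a nuclear pore protein, had 3 knockdown peaks with a highest score of 42.9. In the control list they were PCDH7, then MUC7, a salivary mucin, with 1 peak of score 63.4 over 41295 bp, LARP1B with 1 of 55.3 and SORCS2 with 1 of 54.5. Most of these calls thus rest on a single peak. With peaks that also cover another gene, LARP1B had 2 knockdown and 4 control peaks.

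Genes were also counted in 10 lists of chromosome 4 genes by role. A gene could be on more than 1 list, and its peaks were then counted in each. On the nervous system list, 40 of 47 genes had a peak, where 331 of the 770 coding genes of chromosome 4 had one. All 40 had a control peak. Of these, 38 had fewer knockdown peaks, 1 had more (APBB2, 2 and 1) and 1 had equal numbers (CRMP1, 1 and 1), and 21 had no knockdown peak. Over all chromosomes 46.5% of genes with a peak had fewer, and 32.4% of those with a control peak had none. The 40 genes carried 40 knockdown and 218 control peaks, 18.3 per 100 (13.1 to 25.7), with a median difference of -3 peaks, against -1 over the 457 genes and 0 over the whole series. GLRB, a glycine receptor subunit, had 0 and 4 peaks, SPOCK3 0 and 4, and UNC5C, a netrin receptor, 0 and 3. With peaks that also cover another gene, UNC5C had 1 and 4. On that count MARCHF1, at 1 and 3 for peaks of its own, ran the other way at 13 and 10. The list was chosen with earlier results of these data known, so its direction is not independent evidence, and it includes genes active well beyond neurons, such as HTT, PPP3CA and CAMK2D.

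Without the 40 genes the peaks assigned to 1 gene numbered 616 in the knockdown list and 774 in the control list, 79.6 per 100. Without every peak touching a gene of the list, chromosome 4 as a whole had 825 and 1034, 79.8 per 100, a difference of -2.32 from the other chromosomes in place of -13.0. The other chromosomes were left whole in that comparison, while chromosome 4 lost its listed genes, so the 2 sides are not alike and the gap narrows in part by construction. Removing the 10 genes of largest drop alone left 890 and 1175 (75.7 per 100), and removing 20 left 865 and 1077 (80.3 per 100). When each autosome lost its own 10 genes of largest drop, the ratio was 75.7 on chromosome 4 and between 78.1 and 103 on the other 21. This is the ratio on which the chromosome was selected and lends it no further support.

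Markers of neurons across the whole genome moved with this list. Of 18 neuronal marker genes 6 had a knockdown and 17 a control peak, with 11 and 143 peaks in all. Astrocyte markers had 0 knockdown and 17 control peaks, on 0 and 4 of 7 genes, and GFAP and S100B had none in either list. Oligodendrocyte markers had 0 and 4 peaks, on 0 and 2 of 7 genes, with none on MOG. Biliary epithelial markers, those of the labelled cell type, had 39 peaks in each list, on 9 of 12 genes in each, including KRT7, KRT8, KRT19 and SOX9. EPCAM and CFTR had none in either list. What part the neuronal and glial markers have in the chromosome 4 result was not tested, and less RNA of such genes cannot be told apart from less acetylation of it in these lists.

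The other lists lay closer together in the 2 arms. Chromatin, replication and cell cycle genes had 59 knockdown and 46 control peaks on 23 genes, of which 11 had more, 4 fewer and 8 equal numbers, where all chromosomes gave 33.4% more and 46.5% fewer. NSD2, a histone H3 methyltransferase, had 9 and 10 peaks, MAEA 6 and 6, CCNI, a cyclin, 5 and 3, and TACC3, a spindle protein, 4 and 2. RBPJ, the DNA-binding effector of Notch signalling, had 4 and 1.

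Translation, RNA processing and RNA binding genes had 64 and 65 peaks on 26 genes, with 11 more, 9 fewer and 6 equal, beside the same 33.4% and 46.5%. FIP1L1, a polyadenylation factor, had 7 and 4 peaks, SRP72, of the signal recognition particle, 5 and 6, and HNRNPD 3 and 6. YTHDC1, a nuclear reader of N6-methyladenosine, had 3 and 10, and NAA15, a subunit of an N-terminal acetyltransferase, 0 and 5. PPAT, an enzyme of purine synthesis, had 3 and 3, with a highest score of 107 in the knockdown list and 24.5 in the control list.

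Actin, adhesion and cell polarity genes had 42 and 46 peaks on 12 genes, all with peaks in both arms. Of genes with any peak, 233 of 457 on the chromosome and 6193 of 10894 in the whole series had both. RAPGEF2, at 1 and 7, is also on the nervous system list. WDR1, a cofactor of actin disassembly, had 6 and 4, PALLD, palladin, 3 and 5, and SORBS2 2 and 9. PALLD ran the other way, at 12 and 7, when peaks that also cover another gene were counted. Secretory pathway and ubiquitin genes had 35 and 56 peaks on 21 genes, where SEC31A, a COPII coat protein, had 8 and 6 and USP46, a deubiquitinase, 0 and 4. TRIM2, at 0 and 8, is on this list and on the nervous system list. Mitochondrial, lipid and sugar metabolism genes had 27 and 40 peaks on 17 genes, and PPARGC1A alone accounted for 10 of the 40.

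Growth factor and receptor genes had 17 and 19 peaks on 12 genes. PDGFC had 3 and 0, PDGFRA 3 and 2, AREG, amphiregulin, 2 and 1, and BMPR1B 0 and 2. Chemokine and innate immune genes had 6 and 11 peaks on 8 genes. CXCL8, interleukin-8, was the single CXC chemokine of 13 on the chromosome with a peak of its own, at 3 and 3. TLR3 had 0 and 2, and the other 4 TLR genes had none in either list.

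Liver genes had almost no peaks. Of 35 listed, 4 had any, with 2 knockdown and 3 control peaks in all, and the 7 alcohol dehydrogenase genes and 3 fibrinogen genes had none in either list. Over the chromosome 457 of 2721 genes, and 331 of 770 coding genes, had a peak of their own. ALB, albumin, had 0 and 1. SPP1, osteopontin, which biliary epithelium makes, had 2 and 4 peaks, and its highest-scoring one was the same 13520 bp interval on the strand opposite to the gene in both lists, with a score of 43.8 in the knockdown list and 16.0 in the control list. The 298 genes in no list carried 364 and 503 peaks, 72.4 per 100.

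**Figure D3:**
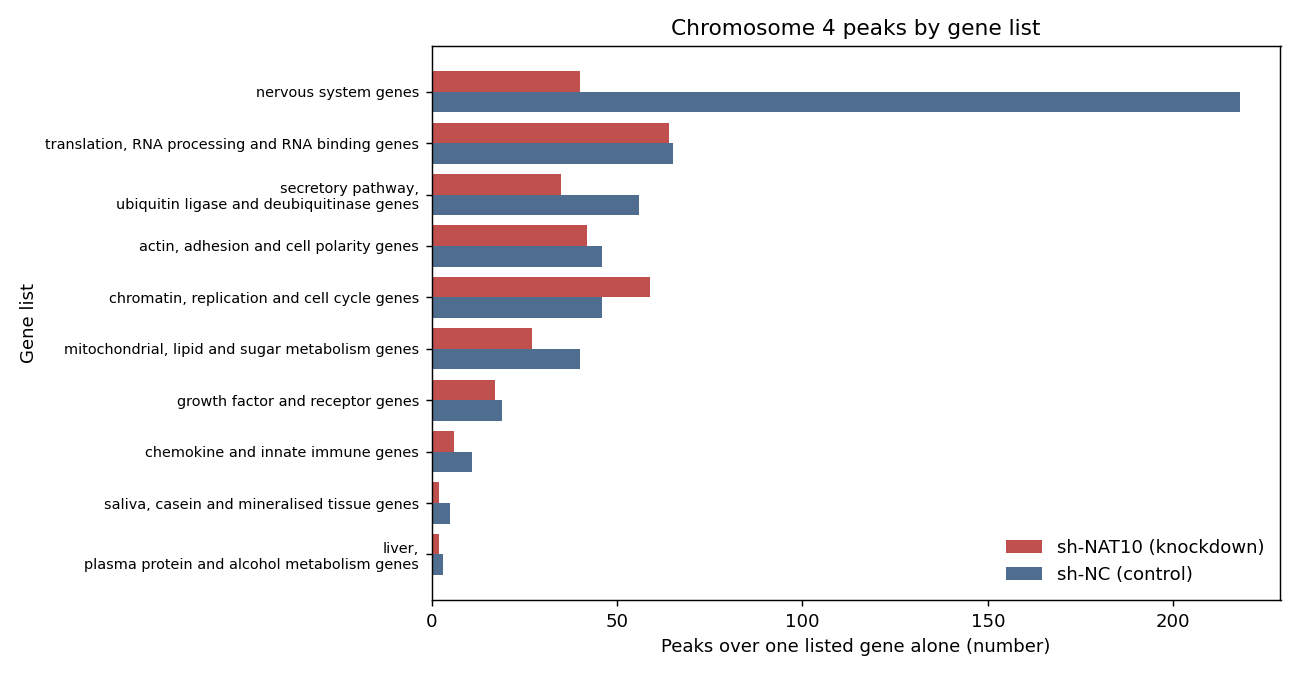
Number of peaks lying over 1 listed gene alone (x axis) for each of 10 lists of chromosome 4 genes (y axis), in the sh-NAT10 list (red, upper bar) and the sh-NC list (blue, lower bar). The nervous system list shows the widest gap, 40 against 218, and the chromatin list is the one with more knockdown than control peaks, 59 against 46.

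Where narrow peaks sit in their genes was read for coding genes whose strand is known, from peaks of up to 1000 bp on the gene's strand. In the last 10% of the span there were 80 knockdown and 201 control peaks, 39.8 per 100 (30.7 to 51.5), against 59.9 on the other chromosomes. The middle 80% held 215 and 271 (79.3 per 100, 88.2 elsewhere), and the first 10% held 25 and 31. The last 10% held 25.0% of the knockdown and 39.96% of the control peaks on chromosome 4, and 22.8% and 30.8% on the other chromosomes.

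In the last 10%, genes of at least 100 kb had 35 knockdown and 147 control peaks (23.8 per 100, 40.7 on the other chromosomes). Shorter genes had 45 and 54 (83.3 per 100, 77.9 elsewhere). Without the nervous system list the last 10% held 74 and 132 (56.1 per 100, 42.2 to 74.4). That range includes the 59.9 of the other chromosomes, which were left whole. The annotation used here gives no exons, so these positions are along the gene span and not along the messenger RNA.

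**Figure D4:**
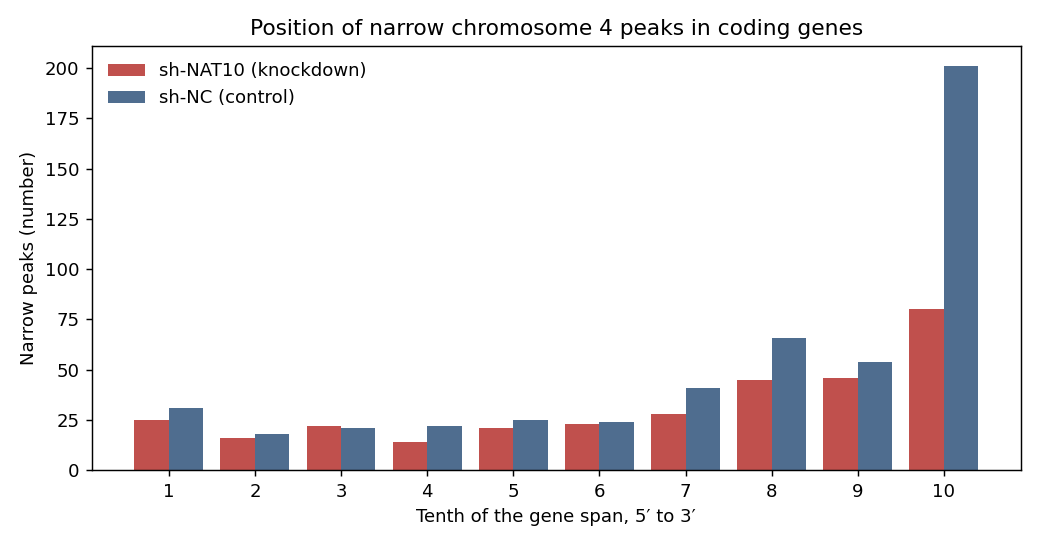
Number of narrow peaks (up to 1000 bp, on the gene's strand) in 10 equal steps along the span of chromosome 4 coding genes, 5′ to 3′ (x axis), in the sh-NAT10 list (red, left bar) and the sh-NC list (blue, right bar). The last step shows the widest gap, 80 against 201, and step 3 holds 22 and 21.

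The ratio declined with the span of the gene. Coding genes under 100 kb carried 312 knockdown and 341 control peaks, 91.5 per 100 (78.5 to 107), against 94.6 on the other chromosomes. Those of 100 kb or more carried 232 and 501, 46.3 per 100 (39.6 to 54.1), against 63.8 elsewhere. At 500 kb or more the numbers were 24 and 116, 20.7 per 100 (31.5 elsewhere).

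Genes of 100 kb or more held 59.5% of the control peaks on coding genes of chromosome 4 and 37.3% on the other chromosomes. With the ratio of each span class taken from the other chromosomes, the coding genes of chromosome 4 would have 73.6 knockdown peaks per 100 control peaks, where the observed value was 64.6 and the other chromosomes had 83.1. Without the nervous system list the long genes of chromosome 4 had 193 and 307 peaks, 62.9 per 100 (52.5 to 75.3).

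**Figure D5:**
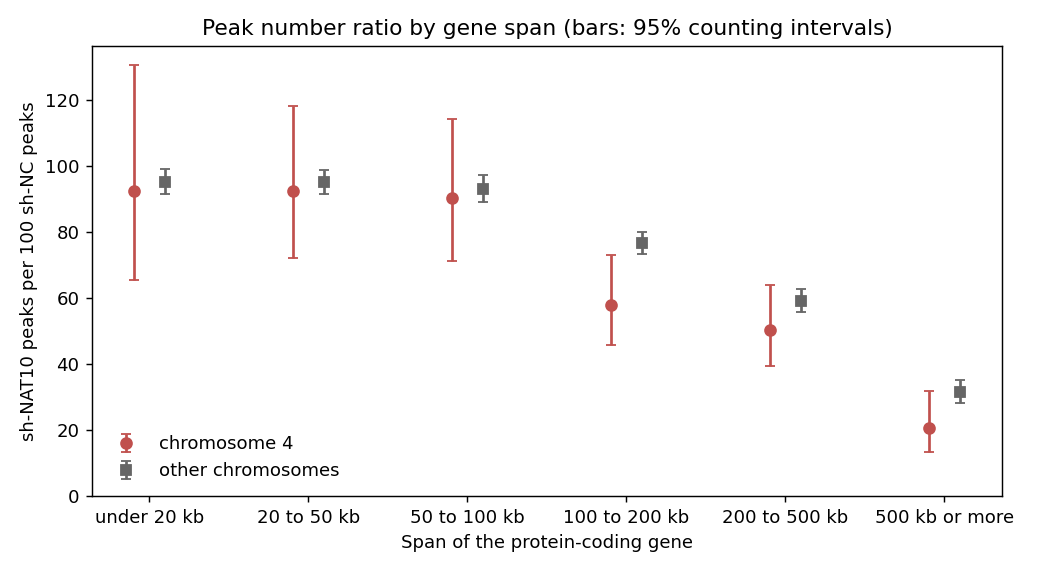
sh-NAT10 peaks per 100 sh-NC peaks (y axis) on protein-coding genes in 6 classes of gene span (x axis), for chromosome 4 (red circles) and the other chromosomes (grey squares), with 95% counting intervals. Below 100 kb the chromosome 4 values lie between 90.3 and 92.5, and they decline to 20.7 at 500 kb or more, where the other chromosomes have 31.5.

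Many of the highest-scoring peaks of chromosome 4 were wide blocks over a pseudogene, where a read can match the expressed parent gene as well. Of the 15 highest-scoring peaks, 9 in the knockdown list and 11 in the control list overlapped an annotated pseudogene. Examples are YWHAQP4 inside MARCHF1, where the knockdown peak spanned 134347 bp with a score of 181, and TPI1P4 at CWH43, with a knockdown peak of 9947 bp and a score of 230. Over the chromosome 23.4% of knockdown and 17.1% of control peaks overlapped a pseudogene, against 13.7% and 12.7% elsewhere. The 15 highest-scoring peaks were wide, with medians of 23.9 and 45.8 kb. Among all peaks over 10000 bp the shares were 35.4% and 22.6%, against 35.6% and 26.8% elsewhere. Among those scoring 50 or more they were 68.4% and 44.0%, against 47.4% and 40.8% elsewhere. Peaks over such copies are therefore uncertain in their gene of origin.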

How the data were processed

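Chromosome 4 rows were taken from both peak lists. The tools named, per the submitters' processing notes, are Bowtie2 2.4.1 and fastp 0.20.1, with the build hg38. How peaks were called, at what threshold, with which inputs and from pooled or single replicates: not given in the sources used here. Each peak was deposited by the authors as an interval with a strand and a score of unstated scale, which served here to order and select the peaks of each arm. Its name ties 1 list to the control titles, which left the other list for the knockdown arm.

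Peaks were called shared from 1 bp of same-strand overlap (bedtools 2.31.1). Genes were RefSeq gene spans (GRCh38.p14), on either strand, and a peak was assigned when it lay over exactly 1 gene. Strand came from the start-site table, for 657 of 770 coding genes. Intervals are 95% Wilson intervals, converted to ratios. Python 3.11.15, NumPy 2.4.6, pandas 2.3.3, SciPy 1.17.1 and matplotlib 3.10.9 were used. The overlap and gene steps were tested on altered copies of the chromosome 4 control peaks, with peaks shifted, moved away or removed.

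The chromosome, gene lists and markers were chosen with earlier results of these data known. Named genes are the 15 largest drops and 10 largest gains in peak number, the 5 highest-scoring genes in each arm alone and in both, up to 8 members of each list, list members with at least 3 peaks in 1 arm only, and the 2 leading genes of each window. GABRG1, GABRB1, PCDH18, APBB2, CRMP1, TBC1D1, FAM114A1, PAICS, YWHAQP4, MTCYBP43, TPI1P4, CWH43, TMEM192, RBM47-AS1 and MIR943 are named beyond that rule, after their values were seen. Alternatives changed the score minimum, the width, the overlap, the gene assignment, the list length, the windows and the genes counted.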

Additional observations from a re-analysis of the deposited data

How the results depend on the processing

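No paired analysis was possible because each arm has 1 peak list that does not separate replicates, and for the same reason no replicate could be left out. Assignment by exons was not run, since the annotation used here has gene spans. The ratio of 69.1 knockdown peaks per 100 control peaks became 84.7 at a score of 20 or more, 85.2 with the control list shortened to the knockdown length, 79.8 without the nervous system list, 75.7 without the 10 genes of largest drop, 76.9 for genes in place of peaks and 54.1 for covered bases. After seeing the data, coding genes under 100 kb (91.5) and of 100 kb or more (46.3) were added. The difference from the other chromosomes, -13.0, became -19.6 for peaks over 1000 bp, -2.32 without the nervous system list, -6.36 without the 10 genes, -2.50 for covered bases and -3.13 for coding genes under 100 kb. It was -14.7 at a score of 20 or more and -15.4 with the control list shortened, where the other chromosomes rose to 99.5 and 100.6. It kept its sign in each. Where genes were removed, they were removed from chromosome 4 only, so those differences set unlike sides against each other. The shared share of knockdown peaks, 52.9%, was 38.5% with 50% reciprocal overlap, 68.3% at a score of 20 or more, 44.6% up to 1000 bp and 65.8% over 1000 bp. That of control peaks, 36.2%, was 26.6%, 57.4%, 33.3% and 40.3% under the same settings. Counting any gene overlapped gave 112 genes with knockdown peaks only and 281 with control peaks only, and a score of 20 or more gave 62 with control peaks only. At that score the difference of knockdown minus control peaks turned to 1 for BLTP1, 2 for ANKRD17, 1 for HTT and -1 for LETM1. It was 0 for 6 of the 15 genes of largest drop, among them TENM3, GRIA2 and PPARGC1A, and for 4 of the 10 of largest gain, and 11 of the 25 kept their direction. Counting any gene overlapped, or peaks up to 1000 bp, turned the direction of none of the 25 genes of largest drop or gain. The cause of these shifts was not tested. Depth is unknown, so a peak missing from a list is not shown to be absent from the RNA.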
